A study of Capra hircus with 13 samples.

Results

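The YTH domain genes of the goat are *YTHDF1*, *YTHDF2*, *YTHDF3*, *YTHDC1* and *YTHDC2*. These 5 genes were taken by name, and all of them are among the 18138 genes that the 5 tables of expression values have in common. The values come from 13 poly(A) RNA libraries made with Smart-seq2 from *Capra hircus* oocytes and in vitro produced embryos. The untreated groups were mature MII oocytes, 4-cell stage embryos and 8-cell stage embryos, with 3 libraries each. The injected groups were 8-cell stage embryos that had received negative control (NC) siRNA or *YTHDF2* siRNA (*YTHDF2*-KD) as zygotes 8 h after in vitro fertilization, with 2 libraries each. The *YTHDF2* siRNAs were given at 20 µM, the injected libraries hold pools of embryos, and the NC libraries carry the word WT in their titles although they were injected. No strain, age or sex was given, and nothing in the labels says that the libraries of a group came from separate animals or cultures, so every p-value measures only the spread between these libraries.

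YTH domain proteins are the readers of N6-methyladenosine (m6A), a methyl mark that writer enzymes place inside mRNA. The YTHDF proteins act in the cytoplasm. YTHDF2 brings the CCR4-NOT deadenylase to marked mRNAs and so starts their decay, and it is known for clearing maternal mRNAs in the early embryos of fish and mice. YTHDC1 works in the nucleus, in splicing and export of marked transcripts, and YTHDC2 is a helicase needed for meiosis in germ cells.

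All values are fragments per kilobase of exon, scaled to the mapped fragments of the library (FPKM). Comparisons of level between genes, such as order and shares, assume that dividing by exon length makes genes comparable, which was not tested. The 9 untreated libraries held 26853876 to 42495116 fragments, recovered from the steps of the FPKM values, and the depth of the 4 injected libraries is unknown. A member had 272 to 3456 fragments in an untreated library, so its counting error was 1.70% to 6.06%, whereas its coefficient of variation between libraries of a stage was 6.43% to 37.3%. The 18159 genes listed for all 3 stages took 63.9% to 65.3% of the fragments in MII oocytes and 90.2% to 94.7% in the embryos. Replicate 1 of the 8-cell stage stood apart, with a correlation of log2 values of 0.854 and 0.898 with the other 8-cell libraries, where all other pairs of replicates reached 0.946 to 0.978. The untreated libraries were drawn from 2 earlier studies without naming which library came from which, so study and stage cannot be told apart. Of the oocyte markers 9 of 10 were listed, and 8 or 9 of them reached 1 FPKM in every untreated library. The markers of embryonic genome activation summed to 10.4 to 14.2 FPKM in MII oocytes, 54.3 to 127 in 4-cell and 334 to 1380 in 8-cell stage embryos. Of 10 cumulus and granulosa markers 9 were listed, with sums of 56.9 to 76.0 FPKM in MII oocytes, 67.6 to 74.9 in 4-cell and 95.6 to 142 in 8-cell stage embryos, highest in replicate 1. The highest of them were *STAR*, at 26.7 to 95.6 FPKM, *HAS2*, at 8.15 to 29.4, *VCAN*, at 9.45 to 16.3, and *TNFAIP6*, at 0.782 to 19.8, while *AMH* was at 0 in all 9 untreated libraries. In replicate 1 of the 8-cell stage *STAR* was at 95.6 FPKM, against 42.4 and 38.8 in replicates 2 and 3. *VCAN* was at 15.1 against 11.4 and 14.2, *HAS2* at 24.4 against 20.6 and 29.4, and *TNFAIP6* at 4.47 against 19.5 and 19.8. The part of other cells in the results was not tested.

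In MII oocytes the order of the members was the same in all 3 libraries, with *YTHDF3* first, then *YTHDF1*, *YTHDC1* and *YTHDC2*, and *YTHDF2* last. The ranges of *YTHDF1* and *YTHDC1* overlapped, as did those of *YTHDC1* and *YTHDC2*, while *YTHDF3* lay above and *YTHDF2* below all others. In the 4-cell stage embryos *YTHDC1* was the highest member and *YTHDF2* still the lowest in 3 of 3 libraries. *YTHDF1* and *YTHDF3* overlapped in between, and *YTHDC2* overlapped with *YTHDF2*. In the 8-cell stage embryos *YTHDC1* remained first in 3 of 3 libraries although its range overlapped that of *YTHDF2*, *YTHDF2* and *YTHDF3* overlapped behind it, and *YTHDF1* and *YTHDC2* overlapped at the lower end. The plot of FPKM by library shows these levels.

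**Figure D1:**
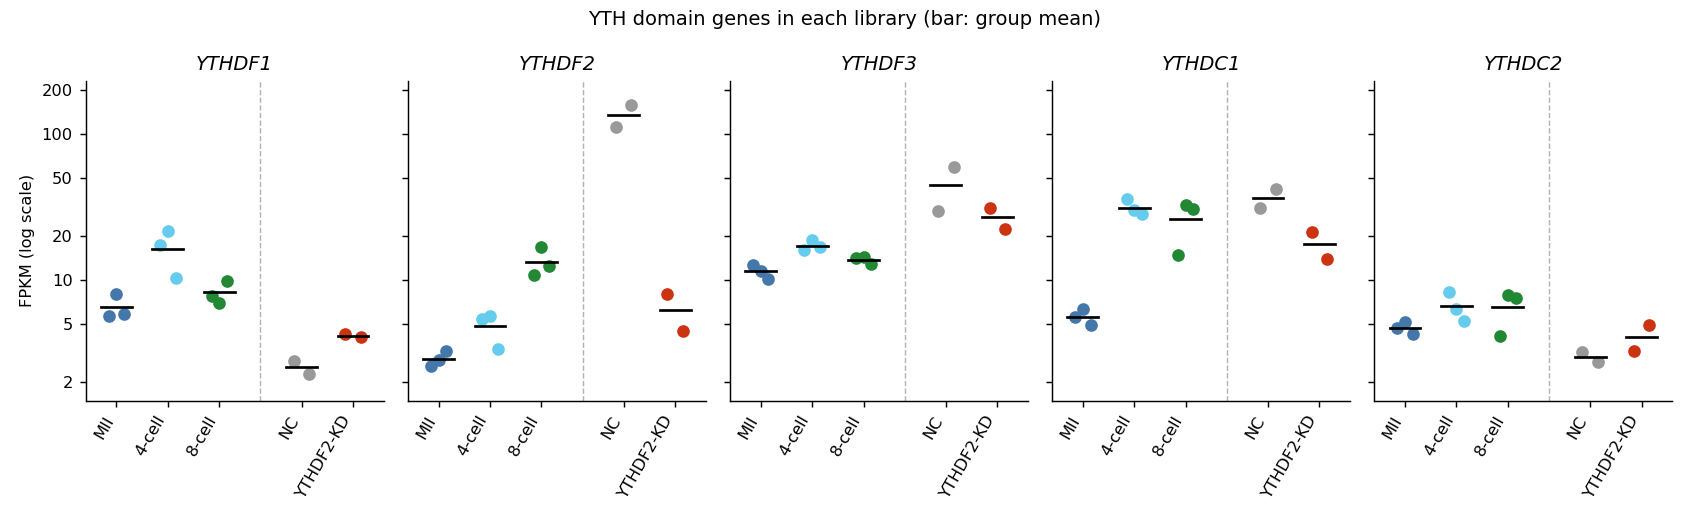
FPKM of each YTH domain gene in each library, on a log axis, with 1 point per library and a black bar at the mean of the group. The dashed line parts the untreated groups (n = 3 each) from the injected groups (n = 2 each), which were normalized apart. *YTHDF2* lay at 2.59 to 3.28 in MII oocytes, at 10.8 to 16.7 in untreated 8-cell stage embryos, at 112 and 159 after NC siRNA, and at 8.07 and 4.47 after *YTHDF2* siRNA.

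The first question was how the members changed from the oocyte to the 4- and 8-cell stages. *YTHDC1* and *YTHDF1* were higher in 4-cell stage embryos than in MII oocytes, *YTHDF3* was slightly higher, and by the 8-cell stage *YTHDC1* and *YTHDF2* were the members called above the oocyte level. Each gene was compared with limma on log2(FPKM + 1) in 1 fit of the 9 libraries, and a gene was called at an adjusted p under 0.05 over 9090 fitted genes. The MII libraries serve as control in both comparisons with the oocyte. All 5 members passed the filter of a mean of 1 FPKM. In 4-cell embryos 3 of 5 were called higher, where 24.7% of all fitted genes were, and no member was called lower, where 6.42% of all genes were. In 8-cell embryos 2 of 5 were called higher against a background of 27.3%, and no member was called lower against 10%. At an unadjusted limma p under 0.05 the same 3 and 2 members were higher and 0 lower, where 32.8% and 34.3% of all genes were higher and 9.74% and 12.8% lower. Since these are bulk samples, a change in the number of cells and a change in the RNA per cell cannot be told apart. The median of all fitted genes was itself 0.29 above 0 on the log2 scale in 4-cell embryos and 0.37 above 0 in 8-cell embryos, and fold changes relative to that median are therefore given too.

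*YTHDF2*, the decay reader, had the lowest level of the family in the oocyte. Its FPKM was 2.59, 2.86 and 3.28 in the MII libraries, 5.43, 5.69 and 3.38 in the 4-cell libraries, and 10.8, 16.7 and 12.5 in the 8-cell libraries. The fragments behind these values were 272, 310 and 428, then 480, 469 and 298, then 899, 1414 and 1165. Each 8-cell library lay above every earlier library, and the lowest 4-cell library lay just above the highest oocyte library. The mean rose from 2.91 ± 0.348 FPKM (SD, n = 3) in MII oocytes and 4.83 ± 1.26 in 4-cell embryos to 13.3 ± 3.07 in 8-cell embryos. The log2 fold change of the 8-cell stage against MII was 1.86 (SE 0.25, limma adjusted p = 0.000546), and relative to the median gene it was 1.49. Against the 4-cell stage it was 1.30 (SE 0.25, limma adjusted p = 0.0174). In that comparison *YTHDF2* was the 1 member of 5 called higher, where 3.06% of all genes were, and no member was called lower, where 5.24% were, although *YTHDF1* was lower at an unadjusted limma p under 0.05, where 13.5% of all genes were. This call was lost without replicate 3 of the 4-cell stage, with a log2 fold change of 1.11 and a limma adjusted p of 0.061, and without replicate 3 of the 8-cell stage, with 1.33 and 0.0513. The difference between the 4-cell stage and MII oocytes, 0.56 on the log2 scale with a 95% interval of -0.0045 to 1.12, did not pass (limma adjusted p = 0.12). Within a library *YTHDF2* ranked above 64.4% to 69.5% of the genes in oocytes and above 76.5% to 84.2% in 8-cell stage embryos.

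*YTHDF1*, a cytoplasmic reader linked to translation of marked mRNAs, was highest in 4-cell embryos. Its FPKM was 5.72, 8.00 and 5.83 in MII oocytes, 17.3, 21.5 and 10.3 in 4-cell embryos, and 7.84, 6.98 and 9.91 in 8-cell embryos. All 4-cell libraries lay above all others, although replicate 3 was only just above the highest 8-cell library, and the oocyte and 8-cell libraries overlapped. The 4-cell stage was higher than MII by 1.17 on the log2 scale (SE 0.28, limma adjusted p = 0.0123), or by 0.88 relative to the median gene. The call was lost when all libraries were scaled to an equal summed FPKM, with 0.68 and an adjusted p of 0.132 by limma, and without replicate 1 of MII, with 1.09 and 0.0527. From the 4- to the 8-cell stage the log2 difference was -0.87 (95% interval -1.50 to -0.23), which did not pass over all genes (limma adjusted p = 0.0932).

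*YTHDF3*, the cytoplasmic reader that works with the other YTHDF proteins, stayed within a narrow range in the untreated libraries. Its FPKM was 12.6, 11.6 and 10.2 in MII oocytes, 16.0, 18.9 and 16.8 in 4-cell embryos, and 14.2, 14.5 and 12.8 in 8-cell embryos. The groups did not overlap, and the whole range ran from 10.2 to 18.9. The 4-cell stage was called higher than MII by 0.55 on the log2 scale (SE 0.17, limma adjusted p = 0.038), which is 0.26 relative to the median gene. The call passed in 7 of 18 settings and was lost under each of 3 rescalings of the libraries, where the difference was 0.042 to 0.20.

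*YTHDC1*, the nuclear reader, was higher in the embryos than in the oocyte. Its FPKM was 5.59, 6.39 and 4.89 in MII oocytes, 35.6, 30.2 and 28.3 in 4-cell embryos, and 14.9, 32.6 and 30.5 in 8-cell embryos. Each embryo library lay above every oocyte library, and replicate 1 of the 8-cell stage lay well below the other embryo libraries. The log2 fold change against MII was 2.29 (SE 0.29, limma adjusted p = 0.000547) in 4-cell embryos and 1.96 (SE 0.29, limma adjusted p = 0.000836) in 8-cell embryos. Both calls passed in all 18 settings, with a log2 fold change of 1.80 to 2.49 in 4-cell embryos and 1.58 to 2.30 in 8-cell embryos. In 4-cell embryos *YTHDC1* rose by more than 98.6% of the fitted genes did. The stages after the oocyte did not differ beyond their spread, with -0.33 on the log2 scale (95% interval -0.97 to 0.31) and 0.014 without replicate 1 of the 8-cell stage.

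*YTHDC2*, the helicase of the family, was not called in any comparison of stages. Its FPKM was 4.67, 5.13 and 4.26 in MII oocytes, 8.30, 6.39 and 5.29 in 4-cell embryos, and 4.17, 7.86 and 7.60 in 8-cell embryos. Its lowest value among the untreated libraries was that of replicate 1 of the 8-cell stage. The log2 difference from MII was 0.41 (95% interval -0.19 to 1.01) in 4-cell embryos and 0.37 (95% interval -0.23 to 0.97) in 8-cell embryos. Relative to the median gene these were 0.13 and 0.0016, and some rescalings turned their sign. Without replicate 1 the difference of the 8-cell stage was 0.62, with a limma adjusted p of 0.0612, and without its replicates 2 and 3 it was 0.23 and 0.25. The difference of the 4-cell stage was 0.26 without its replicate 1.

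**Figure D2:**
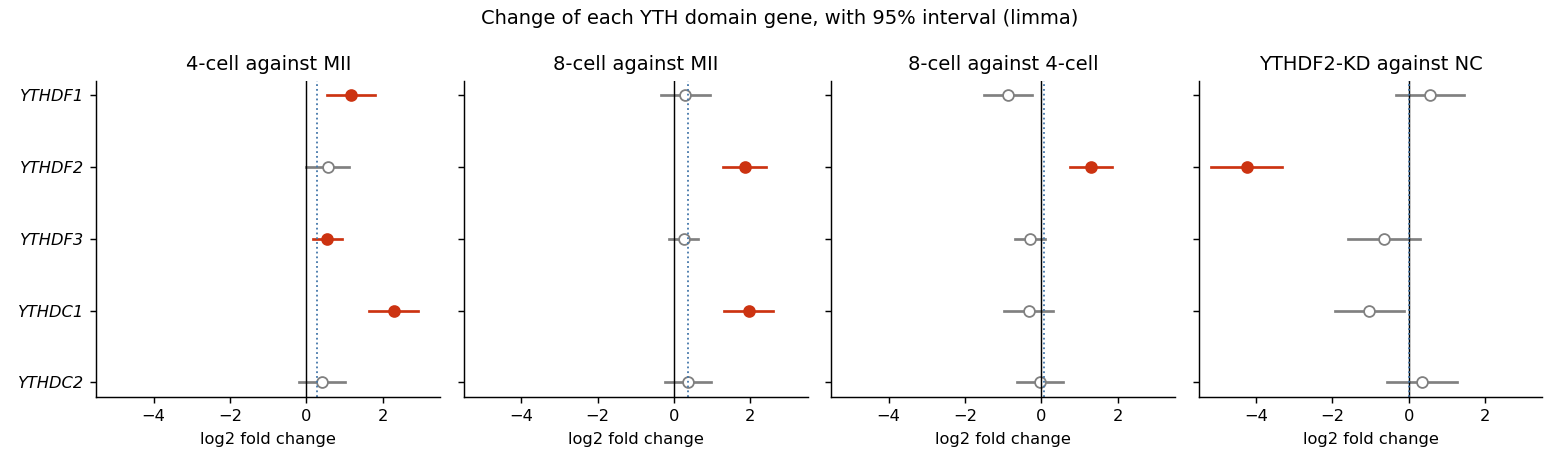
Log2 fold change of each member in the 4 comparisons, with its 95% interval from limma. Filled red points passed an adjusted p of 0.05, open grey points did not, and the dotted blue line marks the median of all fitted genes. *YTHDC1* rose against MII at both embryo stages (2.29 and 1.96), *YTHDF2* rose in 8-cell embryos (1.86 against MII and 1.30 against the 4-cell stage), and in the knockdown *YTHDF2* was the called member (-4.25).

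Whether members changed unequally was asked with the ratio of 2 members within a library, which does not depend on how libraries are scaled. An exact permutation test of the F statistic across the 3 stages over all labellings of the 9 libraries, with a smallest possible p of 0.00357, was run on the log2 ratio of all 10 pairs. The ratio passed in 4 of 10 pairs after adjustment over the 10 pairs. The ratio of *YTHDF1* to *YTHDF2* was 2.21, 2.79 and 1.78 in MII oocytes, 3.19, 3.79 and 3.04 in 4-cell embryos, and 0.727, 0.417 and 0.793 in 8-cell embryos. *YTHDF1* thus had the higher level of the pair in all oocyte and 4-cell libraries and the lower one in all 8-cell libraries (exact p = 0.00357, adjusted 0.0179). The ratio of *YTHDC1* to *YTHDC2* was 1.20, 1.24 and 1.15 in MII oocytes, 4.29, 4.73 and 5.35 in 4-cell embryos, and 3.56, 4.16 and 4.01 in 8-cell embryos. These ratios were close together within a stage, replicate 1 of the 8-cell stage included, and the oocytes lay apart from the embryos (exact p = 0.00357, adjusted 0.0179).

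The ratios of *YTHDF1* to *YTHDC1* (exact adjusted p = 0.0357) and of *YTHDF2* to *YTHDC2* (exact adjusted p = 0.0446) passed as well. The mean log2 ratio of *YTHDF1* to *YTHDC1* went from 0.20 in oocytes to -0.995 and then -1.59, and that of *YTHDF2* to *YTHDC2* from -0.69 to -0.47 and then 1.06. *YTHDF2* against *YTHDF3*, with means of -1.98, -1.87 and -0.074, did not pass (exact adjusted p = 0.051). The pairs *YTHDF2* with *YTHDC1* and *YTHDF3* with *YTHDC1* stood at the same exact adjusted p of 0.051. *YTHDF3* against *YTHDC2* had means of 1.29, 1.39 and 1.13 (exact p = 0.725). When 1 library was left out, 2 to 8 pairs passed. There were 2 without replicate 1 of MII, replicate 2 of MII or replicate 2 of the 4-cell stage, 7 without replicate 2 or 3 of the 8-cell stage, and 8 without replicate 1 of the 8-cell stage. *YTHDF1* with *YTHDF2* and *YTHDC1* with *YTHDC2* were the pairs that passed in all 9 of these runs.

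**Figure D3:**
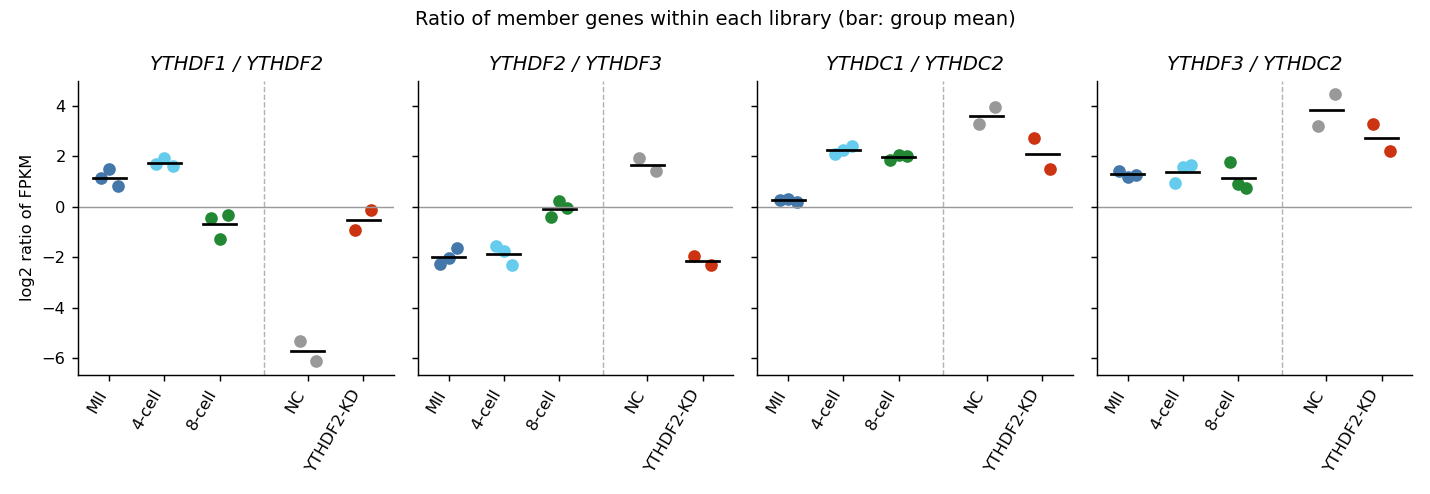
Log2 ratio of FPKM within each library for 4 of the 10 pairs of members, with 1 point per library and a black bar at the mean of the group. The ratio of *YTHDF1* to *YTHDF2* crossed 0 between the 4-cell stage (mean 1.73) and the 8-cell stage (-0.68), that of *YTHDC1* to *YTHDC2* rose from 0.26 in MII oocytes to 2.25 and 1.96, and that of *YTHDF3* to *YTHDC2* stayed between 0.75 and 1.77 in every untreated library.

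The make-up of the cytoplasmic YTHDF readers followed from these levels. *YTHDF2* took 12.4%, 12.7% and 17.0% of the summed FPKM of *YTHDF1*, *YTHDF2* and *YTHDF3* in MII oocytes, 14.0%, 12.3% and 11.1% in 4-cell embryos, and 32.8%, 43.8% and 35.5% in 8-cell embryos. The oocyte and 4-cell libraries overlapped and the 8-cell libraries lay above all of them (exact permutation test of the F statistic, p = 0.0179, and 0.0143 to 0.0321 without 1 library). The share of *YTHDF1* went from 27.4% to 35.6% in oocytes to 33.8% to 46.7% in 4-cell embryos and 18.3% to 28.2% in 8-cell embryos. *YTHDF3* held 51.7% to 60.2%, then 41.0% to 55.1%, then 36.4% to 43.3%. The sum itself was 20.9 ± 1.57 FPKM (SD, n = 3) in oocytes, 38.4 ± 7.85 in 4-cell and 35.4 ± 2.68 in 8-cell embryos.

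**Figure D4:**
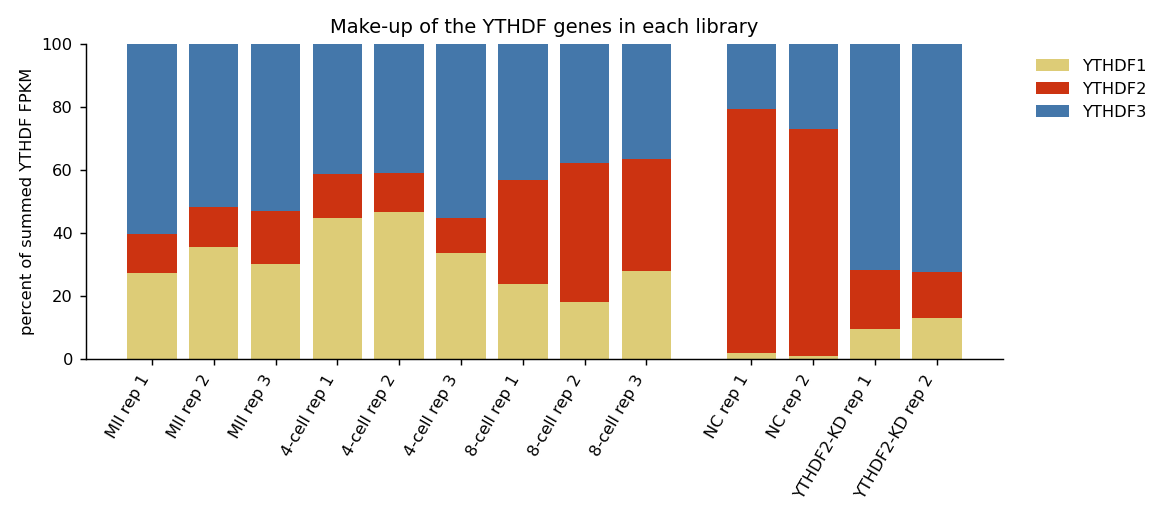
Share of *YTHDF1*, *YTHDF2* and *YTHDF3* in their summed FPKM, in percent, with 1 bar per library. *YTHDF2* (red) took 11.1% to 17.0% in the oocyte and 4-cell libraries, 32.8% to 43.8% in the untreated 8-cell libraries, 77.5% and 71.9% after NC siRNA, and 18.5% and 14.4% after *YTHDF2* siRNA.

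The injected controls did not have the YTHDF make-up of the untreated 8-cell stage embryos. *YTHDF2* stood at 112 and 159 FPKM after NC siRNA, 10.1 times the untreated 8-cell mean, and above 95.4% and 96.6% of the genes of its library. *YTHDF3*, at 29.6 and 59.7 FPKM in the NC libraries, was 3.23 times the untreated mean, and *YTHDC1* 1.41 times. *YTHDF1* was at 0.308 and *YTHDC2* at 0.456 of it. Thus *YTHDF2* went from about the level of *YTHDF3* to the first place in the family, and *YTHDF1* was last. Among 11479 genes with a mean of 1 FPKM in either group, the log2 difference of *YTHDF2* lay above that of 92.7% and that of *YTHDF1* above 17.2%, with a median of all genes of -0.0099. These tables were normalized apart, so no test was run. The ratios within a library, which do not depend on its scaling, differed as well. The mean log2 ratio of *YTHDF1* to *YTHDF2* was -5.72 in the NC and -0.68 in the untreated 8-cell libraries, and that of *YTHDF2* to *YTHDF3* was 1.66 and -0.074. Injection and study cannot be told apart. The activation markers summed to 3153 and 3905 FPKM in the NC libraries, above the 334 to 1380 of the untreated ones, and the 9 oocyte markers to 765 and 488, below 2523 to 3080. Their part in the difference was not tested.

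The knockdown asked what loss of *YTHDF2* did to the embryo, and here to its paralogs. A mixture of 2 siRNAs was injected. They are shown because their sequence sets which transcripts are cut. Each sense core of 19 bases pairs in full with its antisense strand of 21 bases, and capitals mark the seed of the antisense strand, bases 2 to 8 counted from its 5′ end.
s28148 sense core: gggcugauauugcuagcaa
s28148 antisense: uUGCUAGCaauaucagcccaa
s28147 sense core: gcaugaauacuauagacca
s28147 antisense: uGGUCUAUaguauucaugcca
The seeds differ, and the sense cores have at most 3 bases in a row in common, with 47.4% G and C in s28148 and 36.8% in s28147. Matches to goat transcripts, the paralogs included, were not analysed here.

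*YTHDF2* was the called member in the knockdown and the paralogs were not called. *YTHDF2* had 112 and 159 FPKM in the NC libraries and 8.07 and 4.47 in the *YTHDF2*-KD libraries. The groups lay far apart, at 135 ± 33.3 and 6.27 ± 2.55 FPKM (SD, n = 2 each), a ratio of 0.0464. The log2 fold change was -4.25 (SE 0.43, limma adjusted p = 0.000367 over 11004 fitted genes), and 0.0364% of the fitted genes had a lower value. In this comparison 1 of 5 members was called lower, where 5.92% of all genes were, and none higher, where 2.06% were, nor was any higher at an unadjusted limma p under 0.05, where 11.9% of all genes were. The *YTHDF2* level after knockdown was below the 10.8 to 16.7 FPKM of untreated 8-cell stage embryos and above the 2.59 to 3.28 of MII oocytes, with 1 library within and 1 above the 3.38 to 5.69 of untreated 4-cell stage embryos, values that were normalized apart and not tested against each other. Without the filter on low values the same log2 fold change had a limma adjusted p of 0.173 over 20357 genes, and no gene was called, although 3731 genes had an unadjusted limma p under 0.05.

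Among the paralogs, *YTHDF1* had 2.79 and 2.29 FPKM in the NC and 4.28 and 4.08 in the *YTHDF2*-KD libraries. The groups did not overlap and the knockdown was the higher one, by 0.55 on the log2 scale (95% interval -0.34 to 1.44, limma adjusted p = 0.387). *YTHDF3* had 29.6 and 59.7 FPKM in the NC and 31.4 and 22.4 in the *YTHDF2*-KD libraries. The NC libraries differed from each other by more than the groups did, the groups overlapped, and the difference was -0.65 (95% interval -1.60 to 0.31, limma adjusted p = 0.342). It was -0.15 without replicate 2 and -1.14 without replicate 1 of NC, and -0.41 without replicate 2 of *YTHDF2*-KD. With 2 libraries a group, these intervals leave room for a change of the paralogs of more than 1 on the log2 scale.

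*YTHDC1* had 31.1 and 42.3 FPKM in the NC and 21.2 and 14.0 in the *YTHDF2*-KD libraries. The groups lay apart with the knockdown lower, and the log2 difference was -1.03 (95% interval -1.94 to -0.13). By limma its unadjusted p was 0.0282 and its adjusted p 0.128, so it was not called over all genes. The limma adjusted p was 0.13 to 0.234 over 7 other planned settings with all 4 libraries. It was 0.0691 to 0.472 over the 4 settings without 1 library, lowest without replicate 1 and highest without replicate 2 of *YTHDF2*-KD, in which the lone library is assumed to vary like the pair of the other group. With a block of crossed numbers, chosen after seeing the data, it was 0.0645. The rule of the study was a log2 fold change beyond 1 with an unadjusted p under 0.05, there from DESeq2 on counts. Applied here to limma values, it called *YTHDC1* lower beside *YTHDF2*, where 15.3% of all genes were. At an unadjusted limma p under 0.05 alone, 17.6% of all genes were lower. *YTHDC2* had 3.23 and 2.74 FPKM in the NC and 3.26 and 4.93 in the *YTHDF2*-KD libraries. The lower knockdown library was next to the higher NC library, and the difference was 0.34 (95% interval -0.57 to 1.25, limma adjusted p = 0.617). It was 0.099 without replicate 2 and 0.58 without replicate 1 of *YTHDF2*-KD.

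In the make-up of the YTHDF readers, *YTHDF3* took 71.7% and 72.4% after knockdown, where it had taken 20.6% and 27.0% in the NC libraries. *YTHDF1* took 9.79% and 13.2% after knockdown and 1.94% and 1.04% in the NC libraries. The summed FPKM of the 3 genes was 144 and 221 in the NC and 43.7 and 31.0 in the *YTHDF2*-KD libraries, so the larger shares came with a smaller sum. An exact permutation test of 2 against 2 libraries cannot go below 0.333, and none was run. The oocyte markers were higher in the *YTHDF2*-KD libraries, at 992 and 1927 summed FPKM against 765 and 488 in the NC libraries. The 10 cumulus and granulosa markers summed to 90.6 and 81.4 FPKM against 50.3 and 43.1. Among them *HAS2* was at 20.6 and 23.3 against 10.2 and 10.7 FPKM, *STAR* at 28.7 and 33.2 against 20.3 and 17.6, *TNFAIP6* at 18.3 and 9.34 against 5.21 and 6.06, and *VCAN* at 22.4 and 14.97 against 13.8 and 8.44, while *FSHR* and *INHA* were at 0 in all 4 libraries. The activation markers summed to 3480 and 3123 against 3153 and 3905. The part of these cells and transcripts in the member values was not tested.

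The genes that the readers work with were taken as 62 genes in 8 lists, of which 54 passed the filter in the untreated and 59 in the injected libraries. In the 4-cell stage embryos 18 of 54 were called higher than in MII oocytes (33.3%, where 24.7% of all fitted genes were) and 2 lower (3.70%, against 6.42%). In the 8-cell stage embryos 17 were higher (31.5%, against 27.3% of all genes) and 5 lower (9.26%, against 10%). Compared with 4-cell embryos 3 were higher (5.56%, against 3.06%) and 0 lower (against 5.24%), with 1 to 3 higher under the rescalings and 1 without replicate 1 of the 8-cell stage. The shares against MII in 8-cell embryos are near those of all genes. These counts depend on the scaling. Under the 3 rescalings 6 to 10 genes were higher and 7 or 8 lower in 4-cell embryos, and 9 or 10 higher and 7 to 10 lower in 8-cell embryos. Of all fitted genes 9.56% to 12.6% were then higher and 11.4% to 13.2% lower in 4-cell embryos, and 14.9% to 16.1% higher and 15.6% to 17.1% lower in 8-cell embryos. The sign of each called difference held under all 3.

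Of the 6 splicing and export partners of YTHDC1, 4 were called higher at both embryo stages, where 24.7% and 27.3% of all genes were, and under the 3 rescalings 3 and 4 were. *SRSF7* was called lower in 8-cell embryos, at 142 ± 39.5 and 63.6 ± 10.3 FPKM (SD, n = 3). *SRSF1*, a splicing factor, rose from 6.64 FPKM in MII oocytes to 33.2 in 4-cell embryos (log2 fold change 2.21, limma adjusted p = 0.000376). *NXF1*, the mRNA export receptor, rose from 3.25 FPKM to 12.7 and then 41.7 in 8-cell embryos (3.32 against MII, limma adjusted p = 0.000194), although the call against 4-cell embryos was lost without replicate 1 of the 8-cell stage (limma adjusted p = 0.053). *SRSF3* rose from 17.4 ± 1.01 FPKM to 49.1 ± 12.9 and then 146 ± 92.8 (SD, n = 3). Its 4-cell call against MII was lost under all 3 rescalings, and its 8-cell call against 4-cell embryos passed in 2 of 3. In the knockdown 0 of the 6 passed by limma, also at an unadjusted p under 0.05, which 29.5% of all genes passed. Their log2 fold changes had a median of -0.49, against 0.0054 over all genes. *MEIOC*, the meiotic partner of YTHDC2, rose from 14.5 ± 2.21 FPKM in MII oocytes to 34.9 ± 1.49 and 30.9 ± 6.63 (SD, n = 3), although the 8-cell call passed in 1 of 3 rescalings.

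Of the CCR4-NOT deadenylase, the complex that YTHDF2 recruits, 5 of 11 genes were higher in 4-cell embryos, against 24.7% of all genes, and 1 to 3 were under the rescalings. In 8-cell embryos 3 of 11 were higher and 1 lower, the higher ones at the 27.3% of all genes, and under the rescalings 2 were higher and 1 to 3 lower. *CNOT1*, its scaffold, rose from 8.34 FPKM in MII oocytes to 19.0 and 26.5 (log2 fold change 1.59 in 8-cell embryos, limma adjusted p = 0.00135). *CNOT7*, a catalytic subunit, rose from 141 FPKM to 293 and 310, although the 4-cell call passed in 1 of 3 rescalings. Of the decapping genes 4 of 8 were higher at the 4-cell and 3 of 8 in 8-cell embryos, where 24.7% and 27.3% of all genes were, and under the rescalings 1 or 2 of 8 were higher and 1 was lower (*UPF1*, a helicase of RNA decay) at either stage, where none was lower before rescaling. *LSM14A*, a decay body protein, passed under each of them, at 6.93 FPKM in MII oocytes and 28.9 and 34.3 in the embryos. In the knockdown *CNOT10* was called higher, at 26.8 ± 9.81 in NC and 76.5 ± 10.9 FPKM after *YTHDF2* siRNA (SD, n = 2, log2 fold change 1.52, limma adjusted p = 0.0413, past the threshold in 1 of 3 rescalings). *POP5*, a subunit of the RNase P and MRP enzymes, was called lower, at 47.3 ± 17.0 and 9.23 ± 2.40 FPKM (SD, n = 2, log2 fold change -2.21, limma adjusted p = 0.0112, past it in all 3). These were the 2 called genes of 59 in the knockdown, 1.69% higher and 1.69% lower, where 2.06% and 5.92% of all genes were. Of 8 decapping genes 0 were called by limma. At an unadjusted limma p under 0.05, which 17.6% of all genes passed as lower, 4 of them were lower (*DCP1A*, *DCP2*, *DDX6* and *EDC3*, named here after their values were seen). Of the 11 genes listed for RNase P and MRP with RIDA, 4 were lower as well (*POP1*, *POP4*, *POP5* and *RPP14*). Of 11 CCR4-NOT genes 2 were higher (*CNOT6L* and *CNOT10*), where 11.9% of all genes were, and 0 were lower.

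Of 9 m6A writer genes 1 was called higher and 0 lower in 4-cell embryos, where 24.7% and 6.42% of all genes were, and 1 higher and 1 lower in 8-cell embryos, against 27.3% and 10%. The direction of this list depends on the scaling, since under the 3 rescalings 0 or 1 writers were higher and 3 or 4 lower in 4-cell embryos, and 0 higher and 2 or 3 lower in 8-cell embryos. The gene called higher in 4-cell embryos was *METTL14*, a subunit of the methyltransferase, at 17.8 ± 7.14 FPKM in MII oocytes and 42.8 ± 3.97 (SD, n = 3) in the embryos. In 8-cell embryos *CBLL1* was called higher, at 180 ± 13.3 and 270 ± 46.2 FPKM, but not under any of the 3 rescalings or without replicate 1 (limma adjusted p = 0.0529). *KIAA1429*, the older name of *VIRMA*, was called lower, at 6.67 ± 0.348 and 2.96 ± 0.921 FPKM. *ALKBH5*, an eraser, was called higher in 8-cell embryos with a wide spread, at 9.19 ± 2.84 and 38.0 ± 27.2 FPKM, and not called under any of the 3 rescalings or without replicate 1 (limma adjusted p = 0.08). Among the other RNA-binding proteins linked to m6A, 4 of 8 were higher in 8-cell embryos, against 27.3% of all genes, and 1 or 2 of 8 were under the rescalings. *RBMX* rose from 7.33 ± 1.45 to 33.4 ± 3.09 FPKM, while *FMR1*, whose protein binds and silences mRNAs, fell from 12.8 ± 1.69 FPKM in MII oocytes to 2.46 ± 0.225 and 1.40 ± 0.666 (SD, n = 3). In the knockdown no writer, eraser or other reader was called by limma. At an unadjusted p under 0.05, which 29.5% of all genes passed, there were 0 of 9 writers, *ALKBH5* higher, and 3 of 11 other RNA-binding proteins, 2 higher and 1 lower, a share near that of all genes.

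The Pearson correlation of log2 values between members across the 9 untreated libraries ran from 0.083 to 0.80 over the 10 pairs. It was 0.80 between *YTHDF1* and *YTHDF3*, 0.083 between *YTHDF1* and *YTHDF2*, and 0.22 between *YTHDF2* and *YTHDF3*. *YTHDC1* had 0.79 with *YTHDC2*, 0.79 with *YTHDF3*, 0.69 with *YTHDF1* and 0.63 with *YTHDF2*, and *YTHDC2* had 0.55 with *YTHDF1*, 0.53 with *YTHDF2* and 0.44 with *YTHDF3*. Among 3670 other genes that averaged 10 FPKM or more, the course most like that of *YTHDF2* was that of *LEUTX* (0.98), a homeobox gene of genome activation and one of the activation markers, then *OSBPL8* and *ZC3H14* (both 0.96). *LEUTX* went from 11.5 FPKM in MII oocytes to 52.8 and 401, and in the injected libraries it was at 1811 after NC and 2056 after *YTHDF2* siRNA (log2 fold change 0.19, limma adjusted p = 0.736). The genes most like *YTHDC1* were the one listed as 7-Sep, a date form of a septin name, *DCUN1D4* and *CRK* (0.993 to 0.995). For *YTHDF1* they were *ATP5A1* (0.97), *SLC35A1* and *LRCH3*, for *YTHDF3* *PTCD3* (0.98), *MCF2* and *TRUB1*, and for *YTHDC2* *GKAP1* (0.96), *NECTIN3* and *PHOSPHO2*. These correlations describe 9 libraries in 3 stages that the genes share. Of the 15 genes, *ATP5A1*, a subunit of the mitochondrial ATP synthase, was called in the knockdown, lower at 56.8 than at 155 FPKM (log2 fold change -1.39, limma adjusted p = 0.0467).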

How the data were processed

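Libraries were grouped by the stage and treatment in their labels. Reads had been placed on the goat assembly ARS1 by the authors using HISAT2, those with a single location had been counted using HTSeq, and the authors deposited FPKM per gene and library, with 2 decimals for the injected libraries. The deposited FPKM are not counts, and whole fragments were recovered for the untreated libraries alone. The count test of the authors was not repeated. Genes that averaged 1 FPKM or more entered a linear model of log2(FPKM + 1) in limma 3.58.1 (R 4.3.3, eBayes with trend), the 9 untreated libraries in one fit and the 4 injected ones in another, with Benjamini-Hochberg adjustment over all fitted genes at 0.05. Fold changes on this scale understate those of low genes. Whole fragments were recovered for 17917 of 17918 genes within 0.02 of a fragment, and limma voom was run on them as an alternative. The steps of the member values gave exon lengths of 3171 bases for *YTHDF1*, 3072 for *YTHDF2*, 6104 for *YTHDF3*, 3375 for *YTHDC1* and 6309 for *YTHDC2*. Ratios were tested with an exact permutation test written with Python 3.11.15 and NumPy 2.4.6. Intervals of fragments, from SciPy 1.17.1, cover counting error only.

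The named genes are the members, the 3 genes most correlated with each (averaging 10 FPKM or more, no LOC names), and up to 3 called genes with the largest change per list and comparison. Named outside this rule, after their values were seen, were *SRSF7*, *UPF1*, single markers, and list genes past an unadjusted limma p in the knockdown. Lists were made for m6A writers, erasers, other m6A-linked RNA-binding proteins, CCR4-NOT, decapping, RNase P and MRP with RIDA, partners of YTHDC1 and YTHDC2, and for oocyte, cumulus and granulosa, sperm and genome activation markers. The members and lists were chosen with earlier results of these data known. On simulated data with 100 changed genes at each size, the untreated fit of 8809 genes recovered 39 at a log2 change of 1 and 98 at 2. The injected fit of 10652 genes recovered 10 and 94. The changed genes were drawn above a floor of expression, all changes of 2 were rises, and spread was set by level rather than by gene. In the real untreated fit 2833 and 3398 of 9090 genes were called against MII, so these rates do not measure its power. Alternatives were another pseudocount (0.1), no filter, median-ratio, quantile and equal-sum scaling, no trend, a replicate block, and leaving out each library. Names listed more than once in a table were left out. The siRNA sequences are those listed by the study. No coordinates are given, since the reference used here is of another release of the assembly.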

Additional observations from a re-analysis of the deposited data

How the results depend on the processing

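The calls of *YTHDC1* against MII at both stages and of *YTHDF2* in 8-cell embryos against MII passed in all 18 settings. The members called in 4-cell embryos fell from 3 to 1 with an equal summed FPKM, where the share of all genes called higher fell from 24.7% to 9.56%. They were 1 to 3 without 1 library, lowest without replicate 1 of MII, where 1820 of 9174 genes were called. The members called between the 8- and 4-cell stages were 0 to 1 without 1 library, and the pairs with a changed ratio 2 to 8. No member was called without replicate 3 of the 4-cell stage, where 241 of 9169 genes were, or of the 8-cell stage, where 333 of 9126 were. In both runs 2 members had an unadjusted limma p under 0.05, as had 1708 and 1946 of all genes. In the knockdown 0 members were called without the filter, where 0 of 20357 genes were. There 2 members had an unadjusted limma p under 0.05, as had 3731 genes. By the rule of the study, on limma values, 2 members were called lower, where 15.3% of all genes were. Signs turned only for differences that were not called. With median-ratio rescaling, the 8-cell difference from MII was -0.035 for *YTHDF1* and -0.10 for *YTHDF3*. With quantile normalization it was -0.089, -0.15 and, for *YTHDC2*, -0.021. With an equal summed FPKM it was -0.074 for *YTHDF1* and -0.14 for *YTHDF3*, and that of *YTHDC2* was -0.047 in 4-cell embryos against MII and 0.056 between the 8- and 4-cell stages. Between these stages, leaving out 1 library gave *YTHDC2* -0.18 to 0.21 (0.11 without replicate 1 of the 4-cell and 0.21 without replicate 1 of the 8-cell stage) and *YTHDC1* -0.53 to 0.014 (0.014 without replicate 1 of the 8-cell stage). The cause was not tested. Of all called genes 79.4% were higher in 4-cell embryos and 73.2% in 8-cell embryos, against 50.5% and 50.9% with median-ratio rescaling and 42.0% and 48.2% with an equal summed FPKM.

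Same-numbered untreated libraries had correlations of their deviations of -0.51 to 0.20, and those with other numbers -0.37 to 0.51. Of 9 libraries, 0 correlated best with their own number in both other stages. The injected pairs had -0.15 with the same number and 0.15 with crossed numbers, 1 value mirrored because each group holds 2 libraries. Whether the numbers pair the libraries is not settled by these values, and the main fits used no pairing. With a replicate block the members called were 2 in 4-cell embryos (*YTHDF3* at a limma adjusted p of 0.0798), 2 in 8-cell embryos, 1 between them and 1 in the knockdown. All called genes went from 2833 to 2337 of 9090 in 4-cell embryos, from 3398 to 2944 in 8-cell embryos, and from 754 to 311 between these stages. In the knockdown they went from 878 to 461 of 11004. A block with crossed numbers in the knockdown, chosen after seeing the data, called 2107 genes and 1 member. The median-ratio and quantile scalings called 404 and 286 genes in the knockdown, and libraries left out 303 to 1617, where the lone library of a group is assumed to vary like the pair of the other. The knockdown has 2 libraries a group of unknown depth, and the untreated and injected values were normalized apart, which limits every statement across them.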

Other observations

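Of 4 sperm markers 2 were listed for the untreated libraries, with a summed level of 0.185 to 0.99 FPKM, and 3 for the injected libraries. Their sum was 10.5 and 0.87 FPKM in the NC libraries and 2.69 and 2.51 FPKM in the *YTHDF2*-KD libraries, so replicate 1 of NC was the highest.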
